A study of Mus musculus with 12 samples.

Results

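The Cd209 genes of the mouse encode C-type lectins related to human DC-SIGN. All 7 listed members, Cd209a to Cd209g, were found by Ensembl identifier among the 36439 genes of each count table. The family was selected on its read counts in the MRC1+ and CD11c+ sorted fractions, so values from that comparison are given as a description and without a p-value. The libraries came from tumour-associated macrophages (TAMs), the macrophages that populate a growing tumour, which were taken from subcutaneous Lewis lung carcinoma, a tumour line that arose in the lung of a C57BL mouse, in C57BL/6 hosts. Total RNA of 12 samples was sequenced, with 3 libraries in each of 4 groups. The first pair of groups held F4/80+MRC1+ TAMs and F4/80+CD11c+ TAMs, which were sorted on the surface proteins encoded by Mrc1 and Itgax. The second pair held F4/80+ TAMs labelled SFFV.miR-511-3p and SFFV.miR-511-3p-mut, which overexpressed a microRNA or its mutated form and shared the SFFV label. SFFV is the usual name of a viral promoter that is active in many blood cells, and the labels do not say in which cells of the tumour it was active. Age, sex, genotype beyond the strain and the number of mice per library are not stated. The p-values therefore set group differences against the spread of these libraries. Part of that spread may be technical, and it may not stand for the spread between mice.

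DC-SIGN family receptors are membrane lectins that bind mannose-rich and fucose-bearing sugars in a calcium-dependent way and pass bound microbes or glycoproteins into the cell. The human genome has few such genes, while the mouse carries a local expansion of them. In mouse tissues, Cd209a, which is often called mouse DC-SIGN or CIRE, is known from dendritic cells of monocyte origin and from conventional type 2 dendritic cells. Cd209b encodes SIGNR1, a receptor for polysaccharides on macrophages of the splenic marginal zone and of lymph node sinuses. Cd209d encodes SIGNR3, a receptor for mannosylated and fucosylated ligands that can signal through Syk, and Cd209c, Cd209e, Cd209g and Cd209f encode the less studied SIGNR2, SIGNR4, SIGNR7 and SIGNR8.

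The members lie together on chromosome 8. In GENCODE M21 on GRCm38 they span chr8:3743397-4137707, or 394 kb, in the order Cd209a, Cd209e, Cd209d, Cd209b, Cd209c, Cd209f and Cd209g. Cd209a (ENSMUSG00000031494) stands at chr8:3743397-3748984, Cd209f (ENSMUSG00000051906) at chr8:4102787-4105835 and Cd209g (ENSMUSG00000079168) at chr8:4134098-4137707. Cd209g alone is on the plus strand, and the other 6 are on the minus strand. All 7 are annotated as protein coding. The span holds 11 other annotated genes, of which 0 are protein coding and 7 are pseudogenes. The reads were counted on the older build mm9, so these positions describe the genes and were not used for counting.

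Cd209f and Cd209g share long identical stretches just before their starts, which are shown here because the levels of both members were high in MRC1+ TAMs and low in CD11c+ TAMs. RefSeq promoter windows on GRCm38.p6, of 250 bases before and 50 bases after each gene's start, were found for all 7 members. Below are 120 bases of Cd209f (minus strand, chr8:4105836-4105955), of Cd209g (plus strand, chr8:4134532-4134651) and, for contrast, of Cd209a (minus strand, chr8:3748985-3749104), each 5′ to 3′. Each stretch ends at the base before the first annotated start of a protein-coding transcript, which is 71 bases upstream of the RefSeq start in Cd209f and 84 in Cd209g. The Cd209g stretch is also covered by an annotated non-coding, intron-retaining transcript of that gene. Capitals mark the bases that belong to the run identical in Cd209f and Cd209g, and Cd209a has none.
Cd209f: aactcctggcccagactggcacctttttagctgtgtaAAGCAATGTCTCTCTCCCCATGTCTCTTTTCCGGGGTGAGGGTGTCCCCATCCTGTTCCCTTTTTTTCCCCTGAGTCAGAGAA
Cd209g: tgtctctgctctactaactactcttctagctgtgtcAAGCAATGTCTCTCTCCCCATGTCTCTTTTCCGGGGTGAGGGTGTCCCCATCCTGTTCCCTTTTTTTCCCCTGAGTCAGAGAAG
Cd209a: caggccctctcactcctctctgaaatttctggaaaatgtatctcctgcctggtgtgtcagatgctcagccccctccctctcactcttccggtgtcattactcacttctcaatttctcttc

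The identical run of Cd209f and Cd209g was 180 bases long in the 300-base windows and continues past the stretches shown. Among the other 20 pairs of members the longest identical run was 7 to 17 bases. A run of at least 150 bases shared with a window of another gene occurred in 1007 of 27025 genes, or 3.73%. The letters TGANTCA, the AP-1 motif, were searched on both strands and occurred once in Cd209f, 83 bases before the RefSeq start, once in Cd209g, 97 bases before it, and in no other member. Both matches lie inside the identical run, so they are not separate occurrences. That motif occurred in 7.81% of the 32851 promoter windows of the same length. TATAAA occurred in Cd209a, in Cd209f and Cd209g (again inside their identical run) and in 13.6% of windows. GAGGAA, a core of ETS and PU.1 sites, occurred in Cd209d and in 28.3% of windows, and the STAT6 motif occurred in Cd209e and in 6.95% of windows. The motifs other than AP-1 were searched on both strands in the same way, and a match describes letters only.

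The coding sequences showed the same pairing. Cd209f and Cd209g were 89.2% identical over their aligned coding bases, with a longest identical run of 178 bases, while the other 20 pairs were 61.6% to 77.4% identical with runs of 10 to 26 bases. The closest of those 20 was Cd209b with Cd209d at 77.4%. Reads that aligned to several places were not counted by the authors, which bears on near-identical genes. With windows of 36 bases, 34.6% of the annotated transcript windows of Cd209f and 19.2% of those of Cd209g occurred in the other of the pair. With windows of 100 bases the shares were 19.9% and 11.3%. No source used here gives the read length, so the levels of Cd209f and Cd209g are uncertain on the low side, and reads may have been split between them. Cd209c shared 21.6% of its windows of 36 bases and 4.37% of those of 100 bases with genes outside the family, mostly pseudogenes and unnamed transcripts, and none with members. No window of Cd209a, Cd209b, Cd209d or Cd209e, at any of the 4 window lengths, occurred in the transcripts of another gene.

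**Figure D1:**
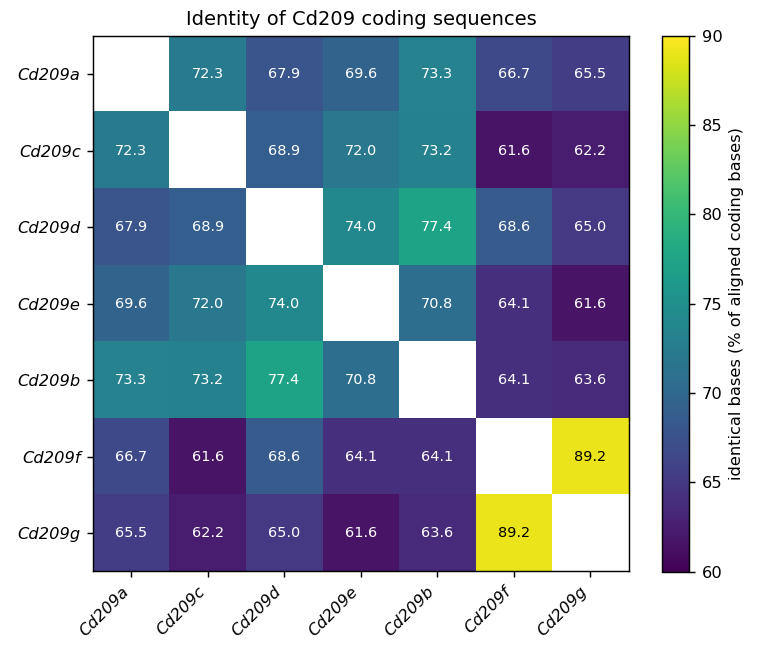
Percent of identical bases in pairwise alignments of the coding sequences of the 7 members, both axes listing the genes and colour giving the percent. The pair of Cd209f and Cd209g stands at 89.2%, and the other 20 pairs lie between 61.6% and 77.4%.

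Reads counted to genes numbered 15664146 to 17689064 per MRC1+ library, 10824918 to 17318957 per CD11c+ library, 23326219 to 27186233 per miR-511-3p library and 22906418 to 27890433 per mutated miR-511-3p library. The members took 4656 reads in all 12 libraries together, so most single values rest on few reads. Levels are given as CPM, counts per 1000000 reads after TMM scaling over the 12 libraries, with the mean ± SD of n = 3 libraries. The gates were seen in the RNA. Mrc1 stood at 3607 ± 265 CPM in MRC1+ and 1545 ± 184 CPM in CD11c+ TAMs, and Itgax at 97.2 ± 21.1 and 946 ± 53.5 CPM. The first CD11c+ library stood apart in the fibroblast markers Col1a1, Col3a1 and Pdgfra, whose summed level was 939 CPM there, 221 and 267 CPM in the other CD11c+ libraries, and 514 to 697 CPM in the MRC1+ libraries.

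Cd209a, the dendritic cell member, was the most abundant member in CD11c+ TAMs and low in every other group. It had 777, 678 and 745 reads in the 3 CD11c+ libraries, or 43.6, 38.6 and 73.4 CPM. The MRC1+ libraries had 33, 25 and 21 reads, or 1.96, 1.26 and 1.22 CPM. The lowest CD11c+ library thus lay far above the highest MRC1+ library. The means were 51.9 ± 18.8 CPM and 1.48 ± 0.415 CPM, and the fitted level in MRC1+ TAMs was 34.8-fold lower (log2 fold change -5.12 ± 0.32, SE). The miR-511-3p libraries held 1.44, 0.548 and 2.06 CPM and the mutated libraries 0.823, 2.05 and 1.32 CPM. These 6 libraries overlapped with the MRC1+ libraries. In bulk samples such as these, fewer cells of a type and less RNA per cell cannot be told apart.

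Cd209c, which encodes SIGNR2, was likewise higher in CD11c+ TAMs, at a lower level. It had 39, 41 and 32 reads in the CD11c+ libraries (2.19, 2.34 and 3.15 CPM) and 5, 10 and 3 reads in the MRC1+ libraries (0.297, 0.504 and 0.174 CPM). The groups did not overlap, and the fitted level was 7.42-fold lower in MRC1+ TAMs (log2 fold change -2.89 ± 0.36). In the overexpression libraries it rested on 1 to 5 reads each.

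Cd209f was the leading member of MRC1+ TAMs. The MRC1+ libraries had 296, 338 and 296 reads, or 17.6, 17.0 and 17.2 CPM, and were nearly level with each other. The CD11c+ libraries had 16, 5 and 1 reads, or 0.897, 0.285 and 0.0985 CPM. The highest of these was the first CD11c+ library. The fitted level was 35.8-fold higher in MRC1+ TAMs (log2 fold change 5.16 ± 0.37), and without the first CD11c+ library the log2 fold change was 6.28. The part of that library's fibroblast transcripts in the result was not tested. The miR-511-3p libraries had 0.719, 1.72 and 2.69 CPM and the mutated libraries 1.20, 2.27 and 1.10 CPM, of which all but the lowest lay above the whole CD11c+ range and all lay below the MRC1+ range.

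Cd209g, the near copy of Cd209f, followed it at a lower level. It had 74, 101 and 89 reads in the MRC1+ libraries, or 4.39, 5.09 and 5.17 CPM. The CD11c+ libraries had 5, 0 and 1 reads, and the 0 allows up to 3 reads, or 0.173 RPM (reads per 1000000 counted to genes, without TMM scaling). The fitted level was 35.3-fold higher in MRC1+ TAMs (log2 fold change 5.14 ± 0.50), and the log2 fold change was 6.80 without the first CD11c+ library and 4.48 without the second. The overexpression groups had 0.359, 0.666 and 0.790 CPM with miR-511-3p and 0.673, 0.846 and 0.486 CPM with the mutated form. Of the reads of Cd209f and Cd209g together, Cd209f took 80.0%, 77.0% and 76.9% in the MRC1+ libraries, 66.7%, 72.1% and 77.3% in the miR-511-3p libraries, and 64.0%, 72.9% and 69.4% in the mutated libraries. In the CD11c+ libraries the pair had 21, 5 and 2 reads, of which Cd209f took 16, 5 and 1.

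Cd209b, the SIGNR1 gene, had the same direction on far fewer reads. It had 21, 25 and 34 reads in the MRC1+ libraries (1.25, 1.26 and 1.98 CPM) and 4, 0 and 2 reads in the CD11c+ libraries. The 6 CD11c+ reads together correspond to 0.133 RPM, with an exact 95% Poisson interval of 0.0488 to 0.289 that covers counting error only. The fitted level was 10.7-fold higher in MRC1+ TAMs (log2 fold change 3.42 ± 0.59), and the log2 fold change ranged from 2.76 to 4.21 as single libraries were left out. The upper end was without the first CD11c+ library and the lower end without the second.

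Cd209d and Cd209e, the genes of SIGNR3 and SIGNR4, showed no such split. Cd209d had 39, 48 and 24 reads in the MRC1+ libraries (2.31, 2.42 and 1.40 CPM) and 33, 13 and 34 reads in the CD11c+ libraries (1.85, 0.741 and 3.35 CPM). Its log2 fold change was 0.13 with a 95% interval of -0.80 to 1.07. Cd209e had 16, 35 and 11 reads in the MRC1+ libraries (0.950, 1.77 and 0.639 CPM) and 12, 21 and 12 reads in the CD11c+ libraries (0.673, 1.20 and 1.18 CPM). Its log2 fold change was 0.18 with a 95% interval of -0.65 to 1.02. The libraries of both groups overlapped for both genes. The intervals rest on a normal quantile, which makes them narrower than edgeR's own test would. They leave room for a log2 change of about 1 or more in favour of MRC1+ TAMs.

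**Figure D2:**
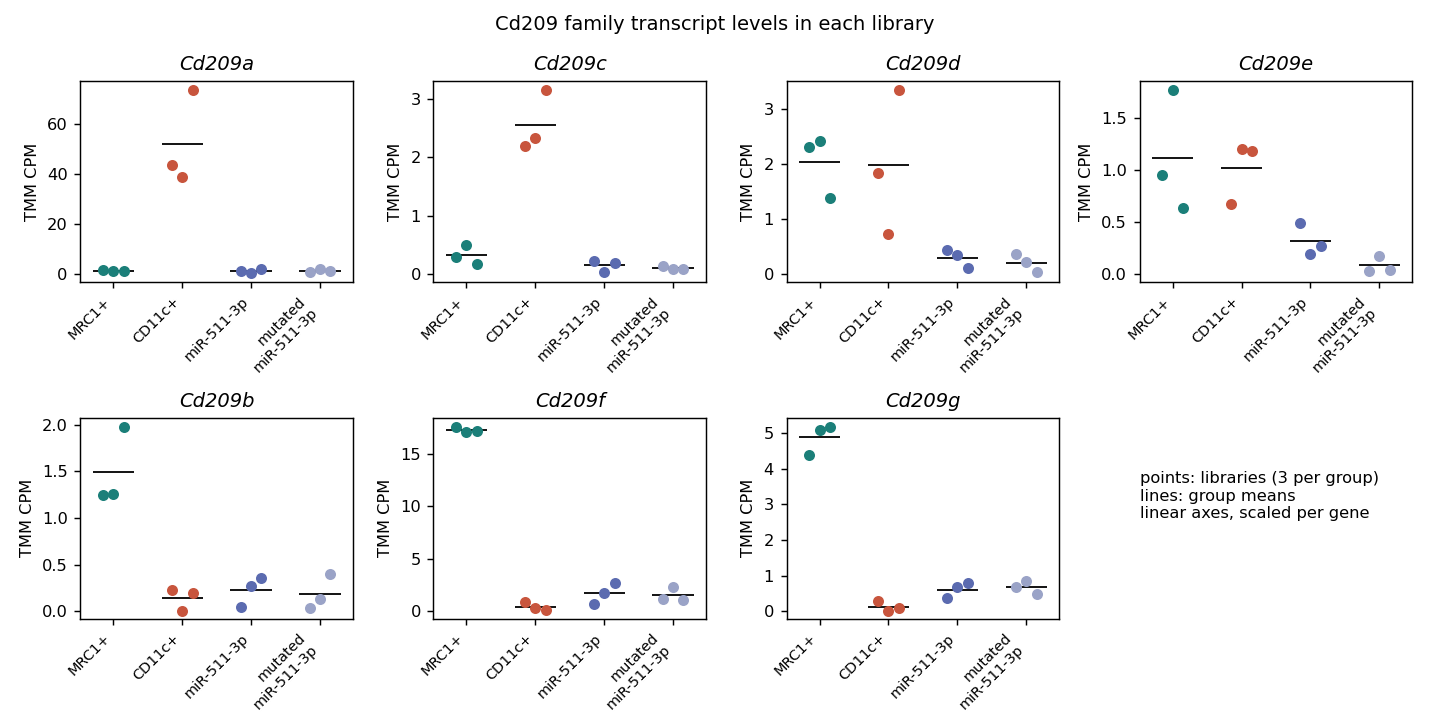
TMM-scaled CPM of each member in each of the 12 libraries, with points for libraries, lines for the means of 3 libraries and a separate linear axis per gene. Cd209a reaches 38.6 to 73.4 CPM in CD11c+ TAMs and Cd209f 17.0 to 17.6 CPM in MRC1+ TAMs, while the overexpression libraries stay at or below 2.69 CPM for every member.

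All 7 members passed the filter on low counts in the sorted comparison. With edgeR and Benjamini-Hochberg adjustment over 15622 genes, 3 members were called higher and 2 lower in MRC1+ TAMs, where 6.91% of all genes tested were called higher and 9.71% lower. Library values did not overlap for the same 3 and 2 members, against 18.5% of genes higher and 19.9% lower without overlap. These counts describe the choice of members and nothing is read from them. The median log2 fold change over all genes tested was 0.01.

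Per kilobase of the longest annotated transcript, the scale on which genes can be compared, Cd209a in CD11c+ TAMs stood at 35.0 ± 12.7 CPM per kb. Cd209f in MRC1+ TAMs stood at 11.2 ± 0.174 CPM per kb, followed by Cd209d at 2.22 and Cd209g at 1.43 CPM per kb. The lengths of Cd209f and Cd209g depend on which transcript is taken. With the longest protein-coding transcript, an alternative added after seeing the data, Cd209f stood at 14.6 and Cd209g at 4.18 CPM per kb in MRC1+ TAMs, so Cd209g then ranked above Cd209d.

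The make-up of the family differed from fraction to fraction. The family as a whole took 30.1 to 32.9 RPM in the MRC1+ libraries and 43.8 to 76.4 in the CD11c+ libraries. Cd209a made up 87.7%, 89.4% and 90.1% of family reads in the CD11c+ libraries, with exact 95% binomial intervals that together span 85.4% to 92.0%. In the MRC1+ libraries it made up 6.82%, 4.30% and 4.39%, while Cd209f made up 61.2%, 58.1% and 61.9%. In the overexpression libraries, which were gated on F4/80 without MRC1 or CD11c, the family took 3.16 to 6.28 RPM, below every sorted library. Cd209a made up 38.6%, 14.4% and 31.7% of family reads there with miR-511-3p and 25.0%, 35.4% and 38.0% with the mutated form. Those 6 shares lay above all MRC1+ and below all CD11c+ shares and rest on 79 to 164 family reads each.

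**Figure D3:**
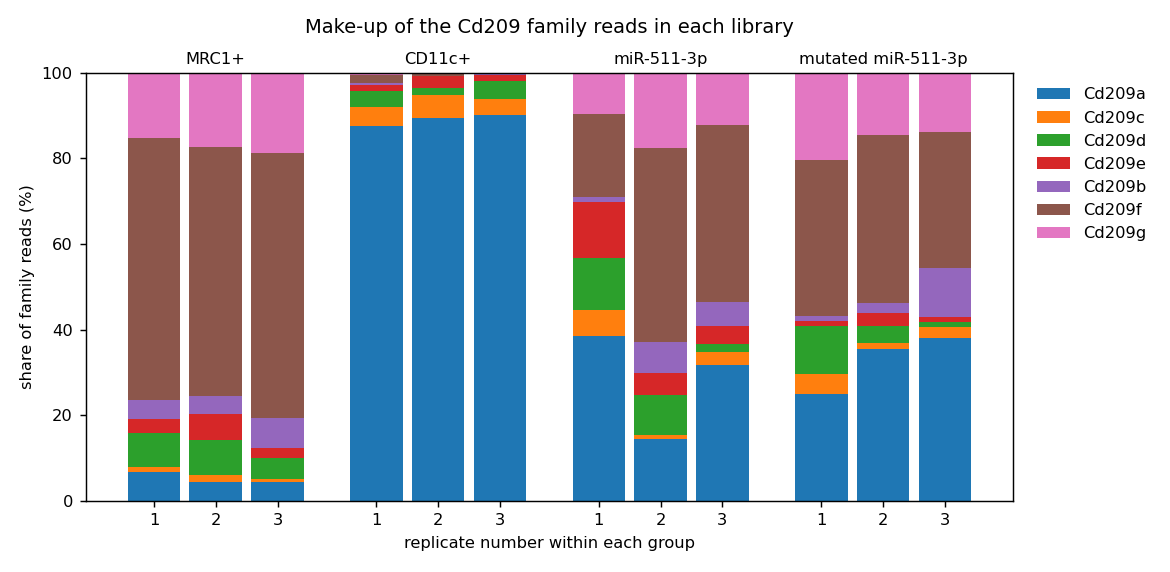
Share of each member in the reads of the family, in percent, for each of the 12 libraries, as stacked bars that sum to 100. Cd209a fills 87.7% to 90.1% of the CD11c+ bars, Cd209f fills 58.1% to 61.9% of the MRC1+ bars, and the overexpression bars are mixed.

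The overexpression groups did not sit between the sorted fractions for every member. Their means lay below both sorted means for Cd209a, Cd209c, Cd209d and Cd209e, and between them for Cd209b, Cd209f and Cd209g. Libraries of both overexpression groups overlapped with the MRC1+ libraries for Cd209a, and those with miR-511-3p did so for Cd209c. For Cd209b both overexpression groups overlapped with the CD11c+ libraries. For Cd209d the miR-511-3p and mutated means were 0.307 ± 0.170 and 0.214 ± 0.165 CPM, against 2.04 ± 0.564 and 1.98 ± 1.31 CPM in MRC1+ and CD11c+ TAMs, and no overexpression library reached the lowest sorted library. Cd209e likewise lay lower in each overexpression library than in any sorted one. The pairs of groups were not compared by a test. They also differed in the share of reads over no annotated gene, at 19.7% to 26.6% in the sorted and 7.64% to 10.4% in the overexpression libraries, and in the summed level of 7 macrophage markers, at 3560 to 5399 and 6414 to 7435 CPM. The part of these differences in the levels was not tested.

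Position in the locus was set beside the difference between the sorted fractions. Cd209a, at one end of the cluster, was the member with the lowest log2 fold change of MRC1+ against CD11c+ TAMs, and Cd209f and Cd209g, 357 and 385 kb away at the other end, had the highest. Between them, Cd209e and Cd209d at 105 and 130 kb were near 0, Cd209b at 178 kb was higher in MRC1+ TAMs, and Cd209c at 206 kb was lower. Cd209b and Cd209c, which are next to each other, thus had opposite directions. Of the 3 nearest annotated genes on the Cd209a side, Gm23886 had no reads in any library, Clec4g, a related lectin gene, had means of at most 0.324 CPM, and Gm16553 had means of at most 0.262 CPM. On the Cd209g side, Evi5l, a gene related to regulators of Rab proteins, stood at 16.9 ± 0.418 CPM in MRC1+ and 13.9 ± 2.71 CPM in CD11c+ TAMs, with a log2 fold change of 0.29 ± 0.15 and an adjusted p of 0.221 by edgeR. Prr36 had a log2 fold change of 0.62 ± 0.34 with an adjusted p of 0.238 by edgeR, and 4932443L11Rik had means of at most 0.0728 CPM.

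**Figure D4:**
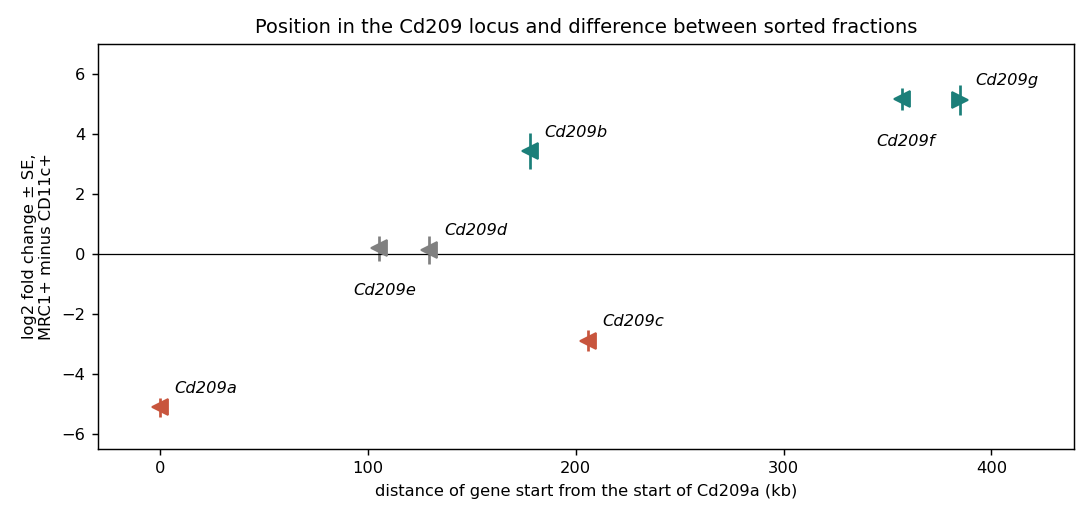
Log2 fold change of MRC1+ against CD11c+ TAMs (± SE from the edgeR fit, 3 libraries a group) plotted against the distance of each gene's start from that of Cd209a in kb, with arrowheads giving the strand. Colour marks members whose libraries do not overlap between the groups, and values run from -5.12 for Cd209a to 5.16 for Cd209f, with Cd209c at -2.89 next to Cd209b at 3.42.

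The genes with a pattern over the 12 libraries most like that of Cd209a were found from the root-mean-square difference of centred log2 CPM over 12 libraries, among 11040 genes with a mean of at least 5 CPM, as a description without a test. The closest were Ccr7, a homing receptor of migrating dendritic cells, at 0.402, Dpp4 at 0.405, Flt3, the receptor of a dendritic cell growth factor, at 0.417, P2ry10 at 0.450 and the class II gene H2-Eb2 at 0.453. The median over all genes was 2.34. This measure covers the sorted libraries on which the family was selected, so it gives no separate support, for Cd209a here or for Cd209f below. Ccr7, Dpp4, Flt3 and H2-Eb2 met the mean of 5 CPM through the CD11c+ libraries, with means of 117, 44.3, 24.4 and 20.7 CPM there. Their other group means were at most 4.6, 1.93, 1.17 and 1.05 CPM. Ccr7 stood at 65.1, 93.0 and 193 CPM in the CD11c+ libraries and at 6.86 CPM or less in the other 9 libraries. The third CD11c+ library was the highest for both Ccr7 and Cd209a. Cd209c differed from Cd209a by 0.978 and Cd209f by 3.88 on this measure.

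Cd209f was followed most closely by Lyve1, which encodes a hyaluronan receptor of lymphatic vessels and some resident macrophages, at 0.494. Cd163, the haemoglobin scavenger receptor of macrophages, came next at 0.981, then Cd55 at 1.04, Reps2 at 1.07 and Npl at 1.16, against a median of 2.09 over all genes. Cd55 met the mean of 5 CPM through the MRC1+ libraries, with a mean of 23.2 CPM there and group means of 2.96 to 6.11 CPM elsewhere. Within the family, Cd209g differed from Cd209f by 0.552 and Cd209b by 1.17. Lyve1 stood at 206, 212 and 250 CPM in the MRC1+ libraries, at 8.75, 4.04 and 3.25 CPM in the CD11c+ libraries and at 13.2 to 42.8 CPM in the overexpression libraries. The first CD11c+ library was the highest of its group for Lyve1, as it was for Cd209f and Cd209g.

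In the sorted comparison 6 gene lists were examined. They cover signalling, ligands and partners, other lectin receptors, dendritic cell genes, macrophage genes, and cytokine signalling with transcription factors. Calls used edgeR's adjusted p over all genes, with 6.91% of genes called higher and 9.71% lower as the background. That balance moved to 8.63% higher and 8.48% lower with upper-quartile scaling and to 14.8% each way without the first CD11c+ library. Upper-quartile scaling left the counts of all 6 lists as given here. As the lists were chosen with earlier results of these data known, their counts and p-values are a description and no separate support. Of 18 tested genes of DC-SIGN and SIGNR signalling, 8 fell and 1 rose in MRC1+ TAMs, with a median log2 fold change of -0.27. Lsp1, which binds the cytoplasmic tail of human DC-SIGN, was lower by a log2 fold change of -1.99 ± 0.22 (edgeR adjusted p = 0.000849). Malt1, a paracaspase downstream of Card9, changed by -2.03 ± 0.28 (edgeR adjusted p = 0.00228) and Cyld, a deubiquitinase, by -0.45 ± 0.08 (edgeR adjusted p = 0.00917). Syk and its partner chain Fcer1g were also among the 8. Arhgef12, an activator of RhoA, was the gene that rose, by 0.65 ± 0.11 (edgeR adjusted p = 0.00674).

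Among 14 genes for ligands and partners of these receptors, 4 fell and 1 rose, with a median of -0.39. Fut7, a fucosyltransferase that builds sialylated Lewis sugars, fell by 3.36 ± 0.24 on the log2 scale (edgeR adjusted p = 0.000101). Clec7a, the beta-glucan receptor Dectin-1, fell by 2.38 ± 0.15 (edgeR adjusted p = 7.25e-05), and Itgb2, the beta chain of leukocyte integrins, fell by 0.98 ± 0.14 (edgeR adjusted p = 0.00253). The fourth was Fut4, another fucosyltransferase. Fcna, the soluble lectin ficolin A, rose by 1.31 ± 0.11 (edgeR adjusted p = 0.000203). Of 14 tested genes for other sugar-binding C-type lectin receptors and relatives, 6 fell and 2 rose, with a median of -0.55. Cd207, encoding Langerin, changed by -2.19 ± 0.11 (edgeR adjusted p = 4.53e-05) and Ly75, encoding DEC-205, by -1.11 ± 0.12 (edgeR adjusted p = 0.000604). The genes that rose were Colec12, a scavenger receptor with a lectin domain, and Mrc1 (1.23 ± 0.13, edgeR adjusted p = 0.000538), whose protein set the gate.

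The lists named for the cell types in which the members are known moved apart, again as a description. The dendritic cell list holds Ccr7, Dpp4 and Flt3, named above as most like Cd209a, and the gate gene Itgax. The macrophage list holds Lyve1 and Cd163, named above as most like Cd209f, and the gate gene Mrc1. Of 20 genes of monocyte-derived and type 2 dendritic cells, 16 fell and 0 rose in MRC1+ TAMs, with a median of -2.09. Dpp4 changed by -4.64 ± 0.15 on the log2 scale (edgeR adjusted p = 1.09e-05), Ear2, a secreted ribonuclease, by -4.01 ± 0.20 (edgeR adjusted p = 4.53e-05) and Irf4, a transcription factor of type 2 dendritic cells, by -2.66 ± 0.18 (edgeR adjusted p = 8.29e-05). Itgax, also in this list, fell by 3.28 ± 0.17 (edgeR adjusted p = 4.53e-05), and its protein set the gate. Of 20 tested genes of resident, lymphatic-sinus and marginal-zone macrophages, 16 rose and 1 fell, with a median of 1.87. Cd163 rose by 4.38 ± 0.15 (edgeR adjusted p = 1.09e-05), Cbr2, a carbonyl reductase, by 3.53 ± 0.19 (edgeR adjusted p = 4.53e-05), F13a1, a clotting factor subunit, by 2.53 ± 0.14 (edgeR adjusted p = 4.88e-05) and Stab1, a scavenger receptor, by 2.14 ± 0.12 (edgeR adjusted p = 5.23e-05). The gene of this list that fell was Timd4, a phosphatidylserine receptor of resident macrophages. Without the first CD11c+ library the dendritic cell list again had 16 genes that fell and 0 that rose, and this list had 16 that rose and 3 that fell. Among the genes that rose were Marco and Siglec1, receptors known from marginal-zone and sinus macrophages.

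Of 18 genes of IL-4 and GM-CSF signalling and macrophage transcription factors, 6 fell and 1 rose, with a median of -0.29. Csf2rb, the shared beta chain of the GM-CSF receptor, changed by -1.82 ± 0.16 on the log2 scale (edgeR adjusted p = 0.000278) and Il13ra1, a chain of the IL-13 receptor, by -0.97 ± 0.09 (edgeR adjusted p = 0.000285). Chil3, a chitinase-like protein, changed by -1.03 ± 0.15 (edgeR adjusted p = 0.00257), and Irf8, a transcription factor of monocytes and dendritic cells, by -0.67 ± 0.13 (edgeR adjusted p = 0.0121). The gene that rose was Arg1, encoding arginase, by 0.63 ± 0.17 (edgeR adjusted p = 0.0433). Retnla, at 0.91 ± 0.53, was not called (edgeR adjusted p = 0.27). Without the first CD11c+ library 11 of these 18 genes fell and 1 rose. The same fit gave 11 lower and 1 higher for signalling, 9 and 1 for ligands and partners, and 7 and 3 for the other lectin receptors.

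Markers of several other cell types differed between the fractions as well. The summed level of 5 dendritic cell markers, Flt3, Zbtb46, Ccr7, Dpp4 and Itgax, was 92.4 to 133 CPM in the MRC1+ libraries, 1051 to 1245 CPM in the CD11c+ libraries and 122 to 325 CPM in the overexpression libraries, and all 5 were lower in MRC1+ TAMs. Itgax, whose protein set the CD11c gate, carries most of this sum. The other 4 markers summed to 15.7 to 17.4 CPM in the MRC1+, 149 to 316 CPM in the CD11c+ and 5.29 to 12.8 CPM in the overexpression libraries. Endothelial markers summed to 28.5 to 37.6 CPM in MRC1+ and 77.2 to 118 CPM in CD11c+ TAMs, and epithelial and carcinoma markers to 30.4 to 44.4 and 70.2 to 74.3 CPM. Within each of these sets of 3, edgeR called 2 markers lower in MRC1+ TAMs (Pecam1 and Kdr, Epcam and Cdh1) and 1 higher (Cdh5 and Krt18). B cell, T cell and NK cell markers summed to at most 4.72, 6.14 and 2.68 CPM in any library. The first and second of these maxima were in the third mutated library, which also had 562 CPM of fibroblast markers, against 147 and 140 CPM in the other mutated libraries, and 136 CPM of neutrophil markers, against 77.2 and 65.9 CPM. No marker was at 0 in all libraries, and the part of these cell types in the levels of the members was not tested.

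The second comparison was miR-511-3p against its mutated form, which asks what changes in TAMs that overexpress the intact microRNA. The members were chosen with earlier results of these data known, so the p-values of this comparison may not be independent of that choice. The microRNA lies inside the Mrc1 gene, and its mature RefSeq sequence (plus strand of GRCm38.p6, chr2:14261051-14261072) is shown 5′ to 3′ because its seed, bases 2 to 8 in capitals, sets which targets can pair with it.
miR-511-3p: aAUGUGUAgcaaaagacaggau

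The complement of that seed, TACACAT, was searched in the longest annotated 3′ UTR of each gene. None of the 7 members held it, in 3′ UTRs of 61 bases (Cd209c) to 1122 bases (Cd209e), while 2540 of 20964 genes, or 12.1%, did. The search covered these letters in these annotated UTRs and no other kind of site.

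No member that passed the filter on low counts differed between the overexpression groups beyond the spread of the libraries. Cd209a, Cd209f and Cd209g passed that filter and Cd209b, Cd209c, Cd209d and Cd209e did not. For Cd209a the 3 libraries of each group, given above, overlapped, with means of 1.35 ± 0.758 and 1.40 ± 0.617 CPM and 98 reads in each group. Its log2 fold change was -0.04 with a 95% interval of -1.05 to 0.97 (edgeR adjusted p = 0.9999). Cd209f had means of 1.71 ± 0.984 and 1.52 ± 0.649 CPM and a log2 fold change of 0.18 with an interval of -0.78 to 1.14 (edgeR adjusted p = 0.9999). Cd209g had means of 0.605 ± 0.222 and 0.668 ± 0.180 CPM and a log2 fold change of -0.13 with an interval of -0.86 to 0.61 (edgeR adjusted p = 0.9999). These intervals again rest on a normal quantile and are too narrow. Those for Cd209a and Cd209f leave room for a log2 change of about 1 or more either way. Without the third mutated library, which stood apart in several marker sums, the log2 fold changes were -0.06, 0.01 and -0.29 for Cd209a, Cd209f and Cd209g. Over all 14054 genes tested, edgeR called 0, or 0%, at an adjusted p of 0.05, while 343, or 2.44%, had an unadjusted p under 0.05, and none of the 3 tested members was among those. DESeq2 called 1 gene.

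Cd209e was the member whose overexpression libraries did not overlap. It had 11, 5 and 7 reads with miR-511-3p and 1, 4 and 1 reads with the mutated form, or 0.494, 0.196 and 0.277 CPM and 0.0374, 0.178 and 0.0442 CPM. The nearest libraries of the groups were 1 read apart. In the fit without a filter on low counts its log2 fold change was 1.87 ± 0.71, with an unadjusted p of 0.0266 and an adjusted p of 0.988 by edgeR. Among the 22048 genes with at least 1 read in these libraries, 2.54% were likewise higher with miR-511-3p without overlap. In that same fit Cd209b, Cd209c and Cd209d had log2 fold changes of 0.31 ± 0.84, 0.45 ± 0.74 and 0.48 ± 0.71, on 8 to 22 reads per group, with overlapping libraries.

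The share of Cd209a among family reads was 28.2% ± 12.4 with miR-511-3p and 32.8% ± 6.87 with the mutated form (SD, n = 3 each). The difference of -4.55 percentage points had p = 0.7 in an exact two-sided permutation test over libraries, where 3 against 3 cannot go below 0.1. The second miR-511-3p library had the lowest share, 14.4% with an exact 95% binomial interval of 8.12% to 23.0%, and without it the difference was 2.34 points. In all 6 lists 0 genes were called in this comparison by edgeR at an adjusted p of 0.05. An unadjusted p under 0.05 by edgeR was found for 5 list entries, against 2.44% of all genes tested. They were C3 (1 of 14 ligands and partners), Mrc1 and Colec12 (2 of 14 other lectin receptors), Mrc1 again (1 of 18 resident macrophage genes) and Retnla (1 of 18 IL-4 and GM-CSF genes). Mrc1 and Retnla were higher with miR-511-3p, and C3 and Colec12 lower. The medians of the lists lay between -0.10 and 0.23 against 0.00 over all genes. The highest of those medians belonged to the list of resident and sinus macrophage genes.

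**Figure D5:**
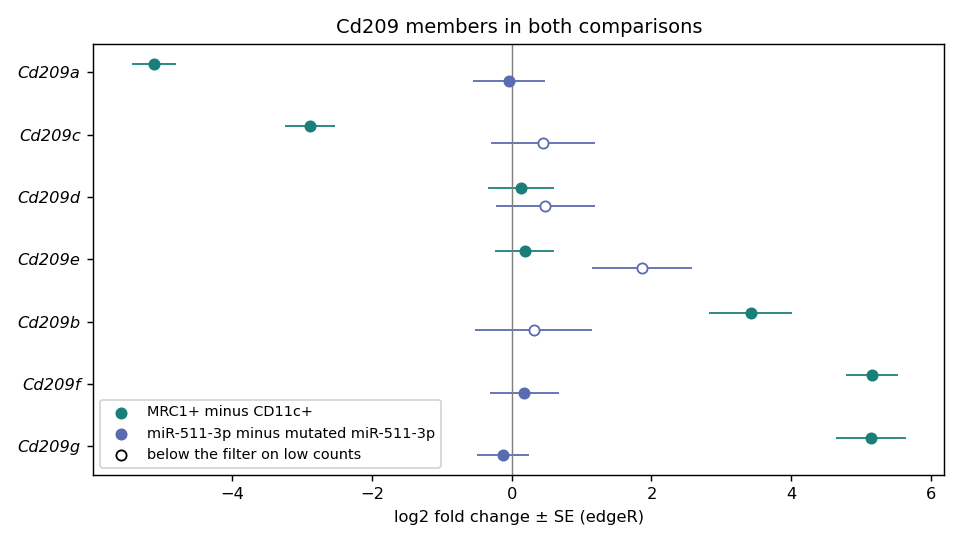
Log2 fold changes with SE from edgeR for each member in the sorted comparison (MRC1+ minus CD11c+) and the overexpression comparison (miR-511-3p minus mutated), 3 libraries a group, with open symbols for members below the filter on low counts. The sorted values spread from -5.12 to 5.16, while the 3 filled overexpression values lie between -0.13 and 0.18.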

How the data were processed

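RNA-seq libraries of 12 TAM samples were prepared with an Illumina TruSeq RNA kit, per the labels' protocols. The authors deposited raw read counts, as whole numbers for each Ensembl gene identifier. Build mm9 (NCBIM37) and the tools HTSeq, SAMtools 0.1.12a, TopHat 1.2.0 and Bowtie come from the submitters' processing notes. No source used here gives the counting mode, use of strand or read length, so antisense and overlapping genes cannot be told apart. The 5 summary entries of each table were left out, among them reads aligned to several places (12.8% to 20.1% of each library). Symbols came from GENCODE M21 (31819 of 36439 identifiers).

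The 2 comparisons used edgeR 4.0.16 (quasi-likelihood, TMM, filterByExpr) in R 4.3.3 on 6 libraries each, with Benjamini-Hochberg adjusted p of at most 0.05. SE is the log2 fold change divided by the root of F. Alternatives were DESeq2 1.42.0, upper-quartile scaling, other filters, a fit of all 12 libraries, a replicate block and leaving out libraries. List counts in other fits and the dendritic marker sum without Itgax were added after seeing the data. The code was tested on simulated data. Same-numbered libraries deviated together (correlations 0.104, 0.334 and 0.246 in the sorted and 0.147, 0.260 and 0.461 in the overexpression groups), all above 0.1. The labels do not pair the numbers, and these correlations do not settle whether the numbers mark pairs. The fits reported and the permutation test did not use the numbers, which entered as the replicate block alternative. The first miR-511-3p library had its highest correlation (0.165) with the second mutated library.

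Named genes were the 7 members, up to 4 genes of lowest p per list, the 5 genes most like Cd209a and like Cd209f, the 3 nearest genes on either side of the locus and the gate genes. Others named from a list were chosen after their values were seen. Members and lists were chosen with earlier results of these data known.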

Additional observations from a re-analysis of the deposited data

How the results depend on the processing

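In the sorted comparison all 5 members outside Cd209d and Cd209e kept their direction in every alternative that gave a value. Over DESeq2, upper-quartile scaling, both other filters, the replicate block and the fit of all 12 libraries, Cd209a ran from -5.14 to -5.07 and Cd209f from 5.17 to 5.21 (log2). A filter of 5 CPM in 3 libraries removed Cd209b, Cd209c, Cd209d, Cd209e and Cd209g. Leaving out single libraries gave -5.35 to -4.79 for Cd209a, -3.39 to -2.62 for Cd209c, -0.29 to 0.67 for Cd209d, -0.34 to 0.45 for Cd209e, 2.76 to 4.21 for Cd209b, 4.85 to 6.28 for Cd209f and 4.48 to 6.80 for Cd209g. Genes called in the sorted comparison numbered 2597, and 1270 to 4707 with a library left out, the highest without the first CD11c+ library and the lowest without the second MRC1+ library (1080 higher and 1517 lower in all, 1348 and 1325 with upper-quartile scaling, 2356 and 2351 without the first CD11c+ library); the cause was not tested.

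In the overexpression comparison 0 genes were called in the edgeR fit, and 1 each with DESeq2, with the replicate block and with all 12 libraries; the cause was not tested. The replicate block gave 2788 calls in the sorted comparison, and under it Cd209a, Cd209f and Cd209g were again not called in the overexpression comparison. With libraries left out, values ran from -0.49 to 0.33 for Cd209a, -0.29 to 0.58 for Cd209f and -0.36 to 0.12 for Cd209g. The sign turned for Cd209a (0.33 without the second miR-511-3p or the second mutated library), Cd209f (-0.29 without the third miR-511-3p library) and Cd209g (0.12 without the first miR-511-3p and 0.07 without the second mutated library). The difference in the share of Cd209a ran from -9.72 to 2.34 points, the last without the second miR-511-3p library. Per kilobase of protein-coding transcript, Cd209f stood at 14.6 and Cd209g at 4.18 CPM in MRC1+ TAMs. In the overexpression libraries 4 of the 7 members fell below the filter, at 3.16 to 6.28 family RPM, although these libraries were deeper than the sorted ones.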
